A study of Mus musculus with 2 samples.

Results

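Nr4a1, Nr4a2, Nr4a3, Egr1, Egr2, Fos, Fosb, Jun, Junb and Jund are early response genes, transcribed within minutes of a signal reaching the cell. They are 10 of the 16098 genes in a table of single Treg cells, and they were chosen by name, as the families most used to read T cell receptor (TCR) signalling and cell handling. All 10 were counted in both libraries of the study. They were described as 5 Nr4a and Egr genes and 5 Fos and Jun genes, and the question was whether the groups were found in the same cells.

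Nr4a1 (Nur77), Nr4a2 (Nurr1) and Nr4a3 (Nor1) are orphan nuclear receptors, and Egr1 and Egr2 are zinc finger factors. In T cells these genes are switched on by the TCR through calcium and ERK signalling, and Nr4a factors take part in forming and keeping Treg cells. Fos and Fosb pair with Jun, Junb or Jund to make the AP-1 transcription factor, which is induced by TCR signals but also by stress, including the handling of a tissue before its cells are sorted.

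The control library held Treg cells from Foxp3DTR-GFP/y Cd4creERT2 mice, whose Foxp3 is active throughout life, and pooled 5 animals. The rescued library pooled 4 Foxp3LSL/y Cd4creERT2 animals, in which a stop cassette silences Foxp3 until Cre removes it, so that their Treg cells stem from cells reached by Cre. Animals of both groups were C57BL/6 males that carried the same inducible Cre, driven from Cd4, and a tdTomato reporter at R26, and all had been given 4-hydroxytamoxifen on postnatal day 14. GFP+ Treg cells were sorted from spleen and lymph node at 7 months of age, and each group gave 1 library, so no difference had a replicate check, no test was run, and animals within a pool could not be separated.

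The control library had 3634 cells and 15446201 unique molecular identifiers (UMIs, tags that count captured RNA molecules), and the rescued library had 3390 cells and 15537656 UMIs. Median depth was 3739.5 and 3846.5 UMIs per cell. The libraries shared 3 cell barcodes. Foxp3, altered in both strains, stood at 80.9 CPM in the control and 468 CPM in the rescued library, where CPM is the summed UMIs of a gene per 1000000 UMIs of the same cells. The T cell gene Cd3e had 10807 and 12472 UMIs and Ikzf2 (Helios), a Treg factor, 19566 and 25804. Of the B cell markers, Cd79b had 557 control and 747 rescued UMIs and the other 4 measured had at most 35, with the defining Ms4a1 and Pax5 at 14 or fewer. Of the myeloid markers, Cst3 had 2566 and 3091 UMIs and the other 5 at most 16. Of the CD8 T or NK cell markers, Nkg7 had 684 and 402 UMIs, Cd8b1 275 and 255, and Cd8a 1 in each. No cluster was named as another cell type, so the share of cells that free RNA alone would mark was not measured. All intervals below are at 95%, take each UMI or cell as independent and cover counting error only.

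The main stretches of promoter that hold cAMP response element (CRE) and CArG motifs are shown for the genes whose cell by cell patterns are compared. The CRE is bound by CREB family factors downstream of calcium, and the CArG box is bound by serum response factor. RefSeq promoters (GRCm38.p6) were matched for 9 of the 10 genes, and the 250 bases before each start were searched on both strands. The patterns were TGACG (the CRE core), TGACNTCA, TGANTCA (which takes in the AP-1 site) and the CArG box. N stands for any base, so TGANTCA is wider than the AP-1 site. A TGACNTCA with G in its open position would count under TGACG as well. Capitals mark the matches, and CGTCA is TGACG read on the other strand. Each run is printed on the gene's own strand with 10 bases on either side of the outermost matches.

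Nr4a1, chr15:101266603-101266820, plus strand: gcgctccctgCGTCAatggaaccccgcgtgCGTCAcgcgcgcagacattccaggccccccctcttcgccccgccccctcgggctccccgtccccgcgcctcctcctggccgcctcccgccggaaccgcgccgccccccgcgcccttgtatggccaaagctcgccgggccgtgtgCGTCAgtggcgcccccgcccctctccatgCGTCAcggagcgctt
Nr4a2, chr2:57124100-57124213, minus strand: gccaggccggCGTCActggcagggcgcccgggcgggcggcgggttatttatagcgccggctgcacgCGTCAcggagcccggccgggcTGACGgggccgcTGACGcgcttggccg
Nr4a3, chr4:48045064-48045172, plus strand: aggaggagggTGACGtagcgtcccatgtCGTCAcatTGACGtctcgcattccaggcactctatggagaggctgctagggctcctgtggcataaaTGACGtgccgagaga
Egr2, chr10:67537748-67537828, plus strand: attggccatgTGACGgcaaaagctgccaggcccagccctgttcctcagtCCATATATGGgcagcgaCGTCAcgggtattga
Fos, chr12:85473751-85473838, plus strand: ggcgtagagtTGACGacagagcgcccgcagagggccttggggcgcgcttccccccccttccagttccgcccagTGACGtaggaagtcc
Fosb, chr7:19310091-19310115, minus strand: gagttgcgggTGACGcaagcgcggg
Jun, chr4:95052250-95052277, minus strand: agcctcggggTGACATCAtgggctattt
Junb, chr8:84978840-84978864, minus strand: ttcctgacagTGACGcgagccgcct

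Each of the 3 Nr4a promoters held 4 copies of TGACG. Of 27025 genes with a promoter window, 44 (0.163%) held 4 or more copies, and 19.8% held at least 1 in any of their windows. The Egr2 and Fos stretches held 2 copies each, and 4.46% of all genes held at least 2. The Fosb and Junb stretches held 1 copy. Jun had none and instead had 1 TGACNTCA, found in 8.55% of genes. The CArG box, found in 1.62% of genes, lay in Egr2 promoters and in none of the other 8 matched promoters within 250 bases. Egr2 has 5 annotated windows: 3 overlapping ones share the stretch shown, another holds only a CArG box and is not shown, and 1 has no match. The end of the Nr4a3 stretch lies in an annotated exon, and Jund, without a match, is not shown. No member's window held TGANTCA, which 7.82% of genes had. A match here is a run of letters in this window and not a measured site.

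The 5 Nr4a and Egr genes were low in counts. Nr4a1 had 360 UMIs in control cells (23.3 CPM, interval 21.0 to 25.8) and 469 in rescued cells (30.2 CPM, 27.5 to 33.0), a log2 ratio of rescued to control of 0.37 (0.17 to 0.58). Nr4a3 had 140 and 198 UMIs (9.06 and 12.7 CPM), and its log2 ratio of 0.49 (0.17 to 0.81) was the highest of the 10 genes. Nr4a2 was barely captured, at 34 and 36 UMIs, and its ratio of 0.07 (-0.64 to 0.79) was not resolved. Nr4a1 and Nr4a3 were thus higher in the rescued library beyond counting error, and Nr4a2 was not.

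Egr1, with the most UMIs of these genes, had 756 control and 874 rescued UMIs (48.9 and 56.3 CPM), a log2 ratio of 0.20 (0.06 to 0.34). Egr2, which restrains T cell activation, had 315 and 406 UMIs (20.4 and 26.1 CPM) and a ratio of 0.36 (0.14 to 0.57). The median of the 5 Nr4a and Egr ratios was 0.36, against 0.02 over all other genes with at least 100 UMIs. It was 0.21 when rescued cells were set against the 2287 control cells with a tdTomato UMI, where the intervals of Nr4a2, Nr4a3, Egr1 and Egr2 included 0. Most cells of that class are likely unlabelled, as given with the reporter classes below, so this is not a comparison with labelled cells. Thinning to 1000 UMIs per cell put Nr4a1 at 0.71, and thinning to 2000 put Egr2 at 0.67.

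Among AP-1 genes, Fos and Fosb had far fewer UMIs than the Jun genes. Fos had 349 control and 479 rescued UMIs (22.6 and 30.8 CPM), a log2 ratio of 0.45 (0.25 to 0.65). Fosb had 226 and 234 UMIs (14.6 and 15.1 CPM), with a ratio of 0.04 (-0.23 to 0.31). Neither value was steady: Fos was at 0.13 and 0.22 with cells thinned to 1000 and 2000 UMIs, and Fosb at -0.56 within clusters of like cells.

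Jun had 5479 control and 5243 rescued UMIs (355 and 337 CPM) and was the only member lower in the rescued library, with a log2 ratio of -0.07 (-0.13 to -0.02). Junb, which can act as a weaker or opposing partner of Fos proteins, had 8881 and 9958 UMIs (575 and 641 CPM), a ratio of 0.16 (0.12 to 0.20). Jund had 17672 and 19649 UMIs (1144 and 1265 CPM), a ratio of 0.14 (0.12 to 0.17). Within clusters these 3 ratios were -0.01, -0.0091 and 0.03, and with cells thinned to 1000 UMIs that of Jun was 0.03. Jun, Junb and Jund each overlap 1 gene on the opposite strand (Junos, Prdx2 and Gm11175). In counts from 3′ ends, levels of different genes also carry their capture efficiency, so the order of genes is that of counted UMIs.

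None of the 10 members reached a log2 ratio of 0.5 in either direction. Of the other 9770 genes with at least 100 UMIs, 6.55% were higher by at least 0.5 and 3.63% lower. Against control cells with tdTomato, none reached it either, where 5.25% of other genes were higher and 3.02% lower. Nr4a3, at 0.49, was just inside that limit and passed it in 3 alternatives, with a range of 0.33 to 0.60 over the 9 tried. Nr4a1, Egr2 and Fos also passed it in some alternatives, reaching 0.71, 0.67 and 0.51.

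**Figure D1:**
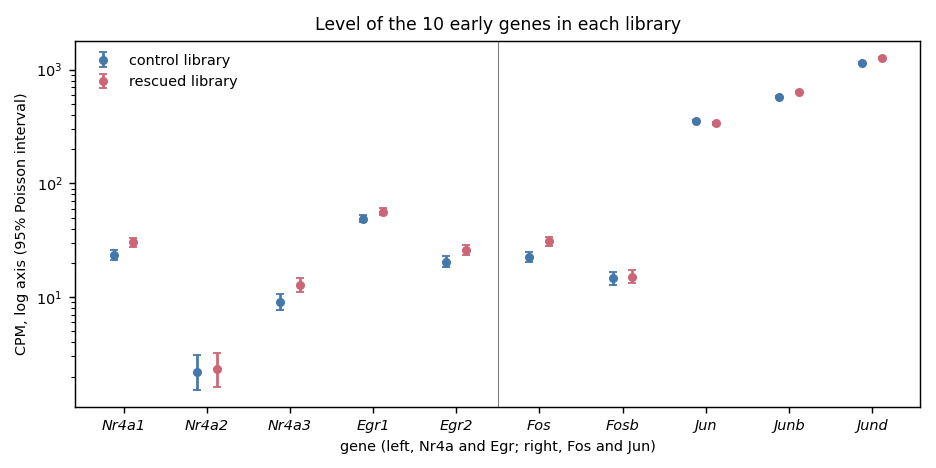
CPM of each gene (log axis) in the control and rescued libraries, with 95% Poisson intervals of the count. The Nr4a and Egr genes, Fos and Fosb lie between 2.20 and 56.3 CPM and the Jun genes between 337 and 1265 CPM, with the libraries close together for every gene.

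Depth affects whether a gene is seen in a cell, so every cell was thinned to 2000 UMIs, which left 3569 control and 3357 rescued cells. Nr4a1 was then found in 2.35% of the control library (1.88 to 2.91%) and 2.68% of the rescued library (2.16 to 3.29%). As sequenced, the shares were 4.21% and 4.78%. Both thinned shares lay within each other's intervals.

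Nr4a2 was found in 0.364% and 0.179% of cells, Nr4a3 in 1.26% and 1.34%, Egr1 in 5.58% and 6.08%, and Egr2 in 2.33% (1.86 to 2.87%) and 3.6% (3.00 to 4.29%), control before rescued. Fos was found in 4.09% and 4.53% of cells and Fosb in 2.27% and 2.92%. Egr2 alone among these 7 genes had intervals that did not overlap, and at 1000 UMIs per cell they did (1.54%, 1.17 to 2.0%, and 2.06%, 1.61 to 2.60%). Jun was found in 41.9% and 39.6%, Junb in 56.9% and 62.0%, and Jund in 84.3% and 87.5% of cells.

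A few cells carried much of the RNA of the low genes, a share that follows in part from how few UMIs a gene has. The 1% of cells with most Nr4a1 UMIs (37 control and 34 rescued cells) held 59.2% of the control and 59.5% of the rescued Nr4a1 UMIs. For Nr4a3 the same share of cells held 60% and 76.3%. For Egr1 it held 40.9% and 37.3%, for Fos 32.4% and 37.0%, for Fosb 42.9% and 36.3%, and for Jund, with many more UMIs, 5.38% and 5.48%. Positive cells at 2000 UMIs had on average 1.81 and 1.99 Nr4a1 UMIs, 1.33 and 1.89 Nr4a3 UMIs, and 1.21 and 1.27 Fos UMIs.

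The Nr4a and Egr genes were found together. The log2 odds ratio of being detected in the same cell at 2000 UMIs is 0 where detection of one gene is unrelated to the other. Over the 10 Nr4a and Egr pairs it had a median of 3.84 in the control library, with pairs from 2.51 to 4.44. In the rescued library the median was 4.12, with pairs from 3.11 to 5.65, and every pair was above 0. Control cells with Nr4a1 had Egr2 in 27.4% (23 of 84 cells, 18.2 to 38.2%), and cells without Nr4a1 in 1.72%. In the rescued library these shares were 35.6% (32 of 90 cells) and 2.72%. Egr1 and Egr2 were found together in 41 control cells, where 4.63 would be if they were unrelated, and in 52 rescued cells against 7.35. Pairs were also above 0 within clusters, with medians of 2.29 and 3.13. Nr4a1 and Nr4a3 shared 12 control cells against 1.06 and 23 rescued cells against 1.21.

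The median was lower over pairs of Fos and Jun genes. Every such pair but Fos with Fosb includes Jun, Junb or Jund, found in 39.6% to 87.5% of cells. This median is thus not like for like with that of the Nr4a and Egr genes, which few cells had. The 10 Fos and Jun pairs had a median log2 odds ratio of 0.39 in control cells, with pairs from -0.17 to 1.85. In rescued cells the median was 0.49, with pairs from -0.03 to 2.62. The highest pair was Fos with Fosb, found together in 10 control cells against 3.31 if unrelated and in 20 rescued cells against 4.44. Jun with Jund, at -0.17 and 0.04, and Jun with Junb, at 0.25 and -0.03, were near 0 in both libraries.

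Between the groups, each AP-1 gene had its own pattern. The 25 pairs had a median of 0.79 in control and 0.61 in rescued cells, with 17 and 16 of them above 0, and another random thinning gave 0.43 and 0.26. In control cells Fos had log2 odds ratios of 1.23 to 2.36 with the 5 Nr4a and Egr genes. Its share in cells with Nr4a1 (10.7%, 5.02 to 19.4%) and with Egr1 (8.54%, 5.06 to 13.3%) lay above that in cells without them (3.93% and 3.83%), while for Nr4a2, Nr4a3 and Egr2 the interval included the other share. In rescued cells Fos shared more cells than if unrelated with Nr4a1 (15 cells against 4.08), Nr4a3 (5 against 2.04), Egr1 (27 against 9.24) and Egr2 (11 against 5.48). Nr4a2, with 6 positive rescued cells at this depth, shared 0 cells with Fos.

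Fosb, although found with Fos, was near the unrelated number with the Nr4a and Egr genes. It shared 1 control cell with Nr4a1 against 1.91 if unrelated and 2 rescued cells against 2.63, and 7 control cells with Egr1 against 4.52 and 6 rescued cells against 5.96. Counts this low leave wide limits on each pair.

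Jun had lower shares beside the Nr4a and Egr genes. Control cells with Nr4a1 had Jun in 32.1% (22.4 to 43.2%), and cells without in 42.2%, inside that interval. In rescued cells the shares were 21.1% (13.2 to 31.0%) and 40.1%, which lay apart. Its log2 odds ratios with Nr4a1, Nr4a3, Egr1 and Egr2 lay between -0.81 and -0.30 in control cells and between -1.35 and -0.44 in rescued cells.

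Junb went the other way. It was found in 72.6% of control cells with Nr4a1 and 56.5% of those without, and in 81.1% and 61.4% of rescued cells. With Nr4a1, Nr4a3, Egr1 and Egr2 its log2 odds ratios were 0.90 to 1.15 in control and 1.04 to 1.45 in rescued cells. Jund, present in most cells and known as the least inducible of the Jun genes, ranged from -0.27 to 0.79 and from -0.43 to 0.81 with the same 4 genes. All cells of a library share one capture and one pool of mice, so these figures describe the 2 libraries.

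**Figure D2:**
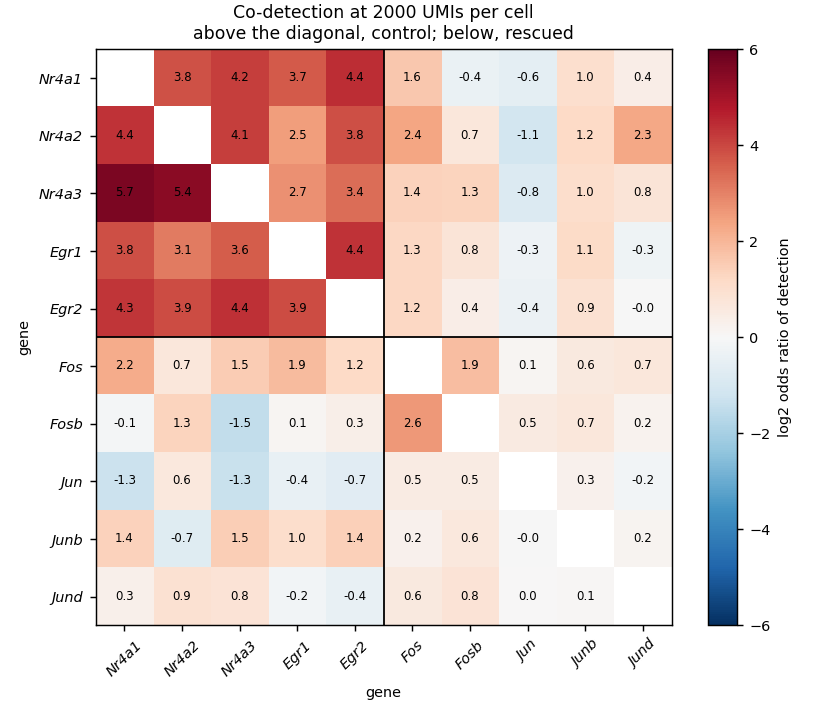
Log2 odds ratio of detection of each pair of genes in the same cell at 2000 UMIs per cell, with control values above and rescued values below the diagonal. The block of Nr4a and Egr pairs is at or above 2.51 throughout, and Fos with Fosb stands at 1.85 and 2.62. Values of Nr4a2, with 13 and 6 positive cells, rest on few cells.

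The same contrast appeared when cells were ordered by how many of the 5 Nr4a and Egr genes they showed. Of control cells, 3250 showed none, 242 showed 1, 55 showed 2 and 22 showed 3 or more, and of rescued cells 3027, 236, 64 and 30. Fos was found in 3.91% of control cells with none and in 31.8% (13.9 to 54.9%) of those with 3 or more, and in 3.93% and 20% (7.71 to 38.6%) in the rescued library. Junb went from 55.6% to 95.5% (77.2 to 99.9%) in control and from 60.5% to 90.0% (73.5 to 97.9%) in rescued cells.

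Fosb stayed low, at 2.22% of control cells with none and 1 of the 22 cells with 3 or more, and at 3.01% and 2 of 30 in the rescued library. Jun was found in 40.4% of rescued cells with none and 10.0% (2.11 to 26.5%) of those with 3 or more. In control cells Jun was found in 42.5%, 38.4%, 27.3% and 36.4% of cells in that order, with wide intervals in the last class (17.2 to 59.3%).

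**Figure D3:**
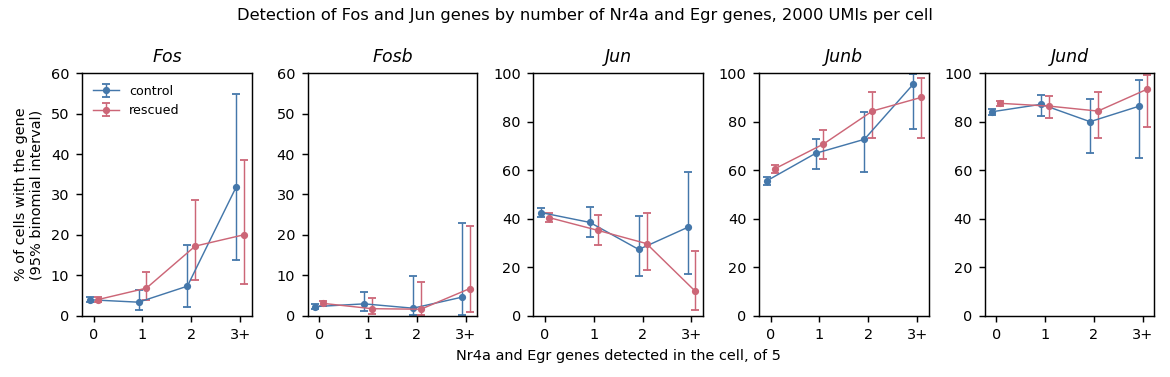
Share of cells with each Fos and Jun gene (%, with 95% binomial intervals) by the number of Nr4a and Egr genes detected in the cell at 2000 UMIs. Fos and Junb are higher in cells with 3 or more than in cells with none in both libraries, Fosb lies below 7% throughout, and Jun reaches 10.0% in the rescued library.

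Cells were next placed in 4 classes at 2000 UMIs. In the control library 292 cells (8.18%, 7.30 to 9.13%) had an Nr4a or Egr UMI but none of Fos or Fosb, 190 cells (5.32%, 4.61 to 6.11%) had Fos or Fosb only, 27 had both and 3060 neither. In the rescued library the classes held 295 (8.79%, 7.85 to 9.80%), 195 (5.81%, 5.04 to 6.65%), 35 and 2832 cells. The shares of the first 3 classes lay within each other's intervals. Cells with neither were 85.7% (84.5 to 86.9%) of the control and 84.4% (83.1 to 85.6%) of the rescued library. Jun, Junb and Jund were left out of the classes because most or many cells have them.

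TCR response genes were higher in the Nr4a and Egr class. The class lay in other clusters of like cells (described with the clusters) than cells with neither: in control cells 24% of it was in cluster 4 and 23.6% in cluster 2, against 6.5% and 28.9%, and in rescued cells 37.6% was in cluster 4 and 26.1% in cluster 1, against 8.86% and 33.3%. The part of this in the values below was not tested. Of 14 genes of a TCR response list with at least 20 UMIs, 13 in the control and 11 in the rescued library were at least 0.5 higher (log2 CPM) in cells with Nr4a or Egr only than in cells with neither, where 11.1% and 10.3% of all other genes were. The list medians were 1.22 and 1.31, against medians of 0.00 and -0.03 over all genes. Control cells had the highest ratios for Irf4, a TCR-induced effector factor (54 UMIs in the class and 77 in cells with neither, 2.88, 2.35 to 3.40), and Nfkbid, a nuclear IkappaB protein (2.40, 2.04 to 2.74). In rescued cells they were Nfkbid (2.80, 2.47 to 3.13) and Rel, an NF-kappaB subunit (1.94, 1.61 to 2.26). At the low end were Il2ra (0.12) and Nfatc1 (0.75) in control cells, and Dusp5 (-0.17, on 14 UMIs) and Myc (0.25) in rescued cells.

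In cells with Fos or Fosb only that list was not higher as a whole. By definition the class leaves out cells that also had an Nr4a or Egr UMI (27 control and 35 rescued cells), which were not compared. It also pools Fos with Fosb, so the values do not describe all Fos cells. In each library 1 of 14 genes was at least 0.5 higher, where 13% and 11.9% of all other genes were, and the medians were 0.02 and -0.15. By as much, 2 genes were lower in control and 4 in rescued cells, but the share of all genes that much lower was not counted. Dusp5 was highest in control cells (0.84, -0.11 to 1.67) and Cd69 in rescued cells (0.58, 0.20 to 0.94). Nfkbid, high in the Nr4a and Egr class of both libraries, was at -0.68 (-1.91 to 0.32) and -1.35 (-2.99 to -0.10).

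Heat shock genes, often induced by tissue handling, were listed to describe it. In cells with Fos or Fosb only, its 11 genes had medians of -0.16 in control and -0.03 in rescued cells. Of them 1 and 0 were at least 0.5 higher, where 13% and 11.9% of all other genes were. The inducible chaperones Hspa1a (0.57, -0.10 to 1.17, on 24 UMIs in the class) and Hspa1b (0.44, -0.12 to 0.95) were highest in control and rescued cells. In cells with Nr4a or Egr only the medians were 0.19 and 0.17. There 0 and 1 genes were at least 0.5 higher, where 11.1% and 10.3% of all other genes were. In the Nr4a and Egr class Hspa1a was lowest in rescued cells (-1.12, on 6 UMIs). No sample was handled in another way, so handling and other stimuli of Fos cannot be told apart here.

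Other early genes were mixed. Of 13 with at least 20 UMIs, 7 in control and 5 in rescued cells were at least 0.5 higher in the Nr4a and Egr class. Of all other genes 11.1% and 10.3% were, and the list medians were 0.50 and 0.21. In the Fos class 2 and 3 of the 13 were, where 13% and 11.9% of all other genes were, with list medians of 0.17 and 0.06. Ier2 was highest in the Nr4a and Egr class in both libraries (1.52, 1.32 to 1.73, and 1.71, 1.5 to 1.92), followed in rescued cells by Zfp36, which destabilises cytokine mRNA (1.56, 1.31 to 1.81). Socs3, an inhibitor of cytokine signalling, was lowest there in both (-0.64, -1.02 to -0.27, and -1.35, -1.74 to -0.98).

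**Figure D4:**
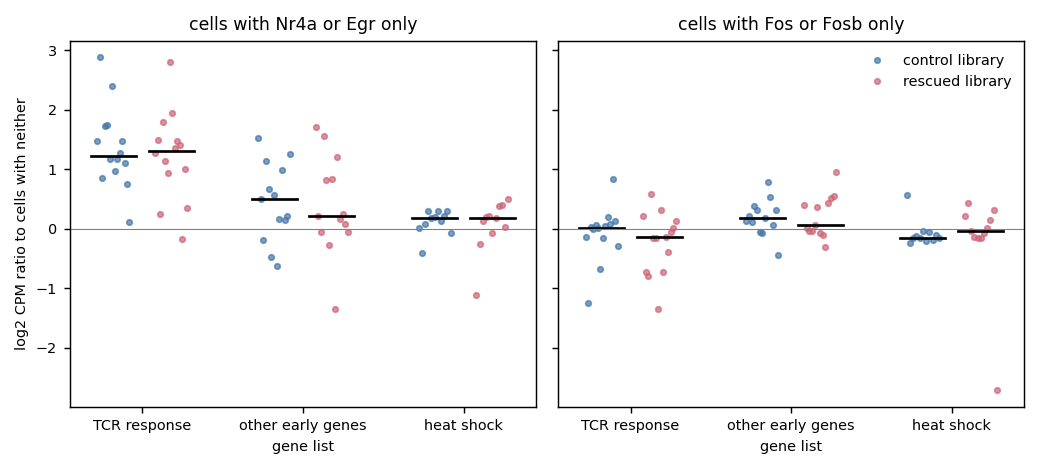
Log2 CPM ratio of each list gene in cells with only Nr4a or Egr genes (left) or only Fos or Fosb (right) to cells with neither, by list and library, with medians as bars. TCR response genes centre on 1.22 and 1.31 on the left and on 0.02 and -0.15 on the right, and heat shock genes lie near 0 on both sides.

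Partners and regulators of the members were looked at in the same classes. Some genes are shared between lists: Nab2 and Nfatc1 are also in the TCR response list, and Fosl2 is also among the other early genes. The counts are thus not separate from those above. Of all other genes, 11.1% in control and 10.3% in rescued cells were at least 0.5 higher in the Nr4a and Egr class. In the Fos class 13% and 11.9% were, and the share of all genes lower by 0.5 was not counted in either class. Of 7 family relatives with enough UMIs, 2 in control and 3 in rescued cells were at least 0.5 higher in the Nr4a and Egr class, and 2 in control cells were lower (Bach1 at -1.02 and Jdp2 at -0.56, on 7 and 2 UMIs). The higher ones were led by Nab2, a corepressor that binds Egr proteins (1.47, 1.04 to 1.89, and 1.26, 0.84 to 1.67), with Batf, an AP-1 factor that pairs with Jun proteins (0.86), next in control cells and Fosl2 (1.21, 0.21 to 2.10) next in rescued cells. Of 11 upstream factors, 4 and 3 were, led by Crem, a CREB family factor (1.42, 0.87 to 1.93, and 0.94, 0.46 to 1.39), and Nfatc1, a calcium-dependent factor (0.75 and 1.00). In the Fos class of control cells 2 relatives were higher and 1 lower by 0.5, and no upstream factor was higher and 2 were lower (Srf at -0.63 and Nfatc2 at -0.61). In that of rescued cells 2 relatives were lower, and no relative or upstream factor was higher. Egr3, Egr4, Atf3 and Fosl1 had at most 8 UMIs in a library and could not be described.

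Junb and Jun, which the classes did not use, also differed. Junb was at 844 CPM in control cells with Nr4a or Egr only and 553 CPM in cells with neither, a log2 ratio of 0.61 (0.47 to 0.75), and in rescued cells at 1081 and 619 CPM, a ratio of 0.80 (0.68 to 0.93). In the Fos class its ratios were 0.46 (0.29 to 0.64) and 0.22 (0.04 to 0.39). Jun was lower in the Nr4a and Egr class (-0.30, -0.53 to -0.08, and -0.40, -0.63 to -0.17) and higher in the Fos class in rescued cells (0.39, 0.16 to 0.60), while in control cells that interval included 0 (0.15, -0.09 to 0.38).

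Cell quality and other cell types were set beside the classes. Median depth as sequenced was 3986.5 and 4183 UMIs in the Nr4a and Egr class, 3702.5 and 3688 in the Fos class, and 3752 and 3836 in cells with neither, and median mitochondrial shares were 9.01% and 8.52%, 9.57% and 8.79%, and 9.46% and 9.13%. Over the 8 classes summed B cell markers ran from 18.5 to 52.6 CPM, and red blood cell markers had at most 7 UMIs in a class. tdTomato stood at 509 CPM in the control Nr4a and Egr class against 375 CPM with neither, and at 990 against 604 CPM in the rescued library. Summed CD8 T or NK cell markers stood at 83.9 CPM in the control Nr4a and Egr class against 47.2 CPM with neither, and at 49.2 against 35.5 CPM in the rescued library. Cycling markers stood at 47.9 against 27.3 CPM and at 45.8 against 34.6 CPM. Summed myeloid markers stood at 151 CPM in control cells with Nr4a or Egr only against 164 CPM with neither, and at 220.3 against 199 CPM in the rescued library. Foxp3 stood at 97.6 against 80.6 CPM and at 453 against 479 CPM. The part of these in the class differences was not tested.

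Over all cells, the genes most like the summed Nr4a and Egr genes were Nfkbid (mean Pearson r of the 2 libraries 0.41), Tagap (0.33) and Ier2 (0.33) among 6976 genes with at least 500 UMIs. The genes most like the summed Fos and Jun genes were Ier2 (0.15), Nfkbia (0.14) and Tnfrsf4 (0.14). Correlations were taken over 3634 control and 3390 rescued cells of 1 library each, which share depth and capture.

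To see where the members lay among Treg states, cells were clustered without the 10 genes, giving 11 clusters. Cluster 4, with Areg, Il1r2, Rgs16, Pdcd1 and Bhlhe40 among its leading genes, held 305 control and 403 rescued cells. Among clusters with at least 50 cells of a library, it had the highest level of Nr4a1, Nr4a2, Egr1, Egr2, Fos and Junb in both libraries and of Nr4a3 in the rescued library. Nr4a1 was at 102 CPM there in control cells and 162 CPM in rescued cells, and at 4.22 CPM in rescued cells of cluster 0. In control cells the peak of Fos was not resolved, at 31.1 CPM (22.7 to 41.6) in cluster 4 and 29.97 CPM (20.8 to 41.9) in cluster 5. The control intervals of Nr4a1 and Nr4a2 in cluster 4 also overlapped those in cluster 7. In rescued cells Fos was at 77.9 CPM (65.9 to 91.4) in cluster 4 and 41.9 CPM (33.0 to 52.4) in cluster 5. Genes that vary with the members helped to define the clusters, so these levels are a description.

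The libraries differed in how the members were spread over clusters. Cluster 4 held 8.39% of control cells and 40.8% of control Nr4a1 UMIs, and 11.9% of rescued cells and 66.3% of rescued Nr4a1 UMIs. For Egr1 it held 28.7% and 54.3% of UMIs, for Egr2 41.9% and 63.1%, and for Fos 12.9% and 31.3%. Within cluster 4 the log2 ratio of rescued to control was 0.67 (0.38 to 0.96) for Nr4a1, 0.96 (0.49 to 1.44) for Nr4a3, 0.72 (0.48 to 0.96) for Egr1, 0.54 (0.24 to 0.86) for Egr2 and 1.33 (0.84 to 1.84) for Fos. These 5 ratios were above those of the whole libraries.

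In cluster 0, with no listed marker among its 10 leading genes, Nr4a1, Egr1 and Egr2 were lower in rescued cells. Nr4a1 was at -1.54 (-2.68 to -0.50) on 11 rescued and 30 control UMIs, Egr1 at -0.85 (-1.36 to -0.35) and Egr2 at -1.23 (-1.97 to -0.52). In cluster 7, whose leading genes include Srm and Mettl1, Nr4a1 was at -1.20 (-1.85 to -0.57) and Egr1 at -0.95 (-1.86 to -0.07). Control cells of cluster 7 had the highest Nr4a3 level of that library, 51.6 CPM. Cluster 3 had Nr4a1 at -1.51 (-3.21 to -0.17) and Egr1 at -1.08 (-1.85 to -0.39). In cluster 1, with 208 control and 1108 rescued cells, Nr4a1 was at 1.57 (0.14 to 3.48, on 4 control and 68 rescued UMIs) and Egr1 at 0.62 (-0.00 to 1.31). The direction of Nr4a1 and Egr1 thus varied between clusters.

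Jun had another order. It was highest in cluster 6, marked by Plac8 and Ccr9 (587 CPM in control and 648 CPM in rescued cells), and lowest in cluster 7 (182 and 167 CPM), with cluster 4 at 229 and 232 CPM. Fosb was highest in cluster 5 of the control (30.9 CPM) and in the interferon cluster 8 of the rescued library (51.0 CPM, on 51 cells). Jund ranged from 899 to 1399 CPM in control and from 1074 to 1416 CPM in rescued cells, a log2 ratio of highest to lowest cluster of 0.64 and 0.40.

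**Figure D5:**
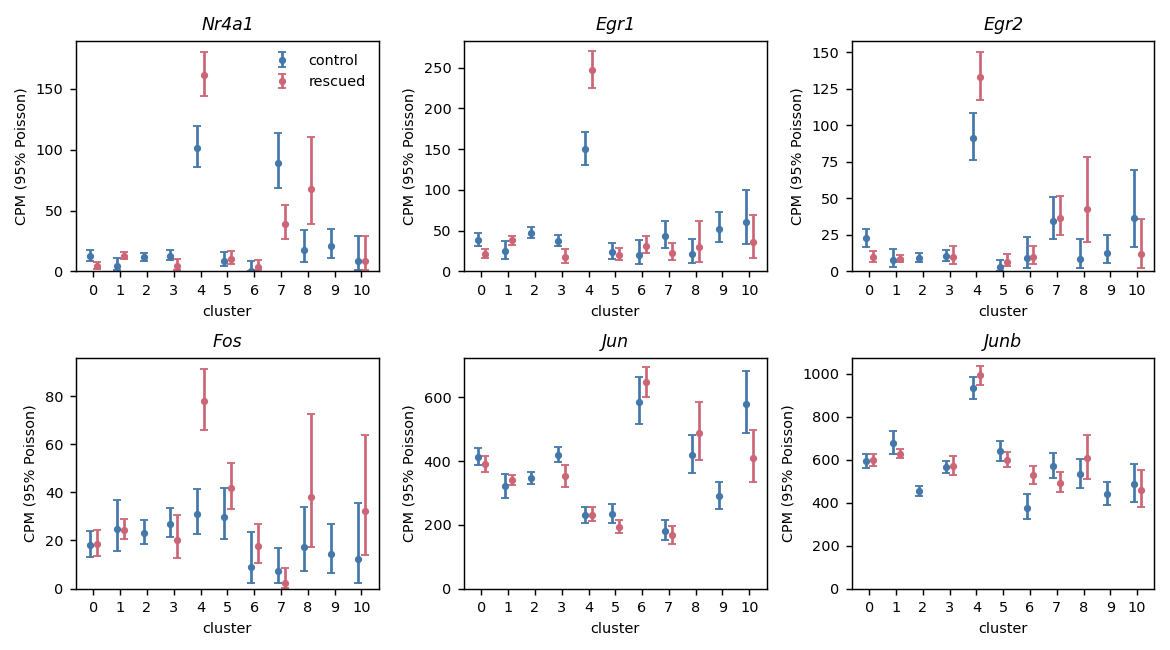
CPM of 6 members in clusters with at least 50 cells of a library, with 95% Poisson intervals. Nr4a1, Egr1, Egr2 and Junb are highest in cluster 4 in both libraries, and Fos has a clear peak there in rescued cells only. Nr4a1, Egr1, Egr2 and Fos are higher in rescued than in control cells of cluster 4. In control cells the interval of Fos in cluster 4 overlaps that in cluster 5, and the interval of Nr4a1 overlaps that in cluster 7. Jun is at 229 and 232 CPM in cluster 4 and peaks in cluster 6.

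Cells with an Il1r2 or Penk UMI, markers of recent stimulation, numbered 236 in the control and 431 in the rescued library. They held 21.1% of control and 35.0% of rescued Nr4a1 UMIs and 17.1% and 45.5% of Nr4a3 UMIs, at 50.9 and 61.1 CPM of Nr4a1. Fos was at 27.4 CPM there and 22.1 CPM elsewhere in control cells, and at 28.0 and 31.4 CPM in rescued cells. Jun was lower in these cells, with log2 ratios of -0.73 (-0.90 to -0.57) and -0.51 (-0.63 to -0.39). Their median depth was 5232 and 5027 UMIs against 3704.5 and 3721 elsewhere.

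Among control cells, those with a tdTomato UMI (2287) were set against those without (1347). Egr2 was higher by a log2 ratio of 0.51 (0.14 to 0.90), Nr4a3 by 0.57 (0.00 to 1.17), Fosb by 0.67 (0.22 to 1.15) and Nr4a2 by 1.47 (0.08 to 3.19, on 29 and 5 UMIs). These 4 members reached 0.5, and no member was lower by 0.5. Of the other 8724 genes with at least 100 UMIs, 3.59% were that much higher and 0.768% that much lower. Nr4a2, on its 29 and 5 UMIs, would not have met that minimum, so the share does not apply to it. Nr4a1 was at 0.41 (0.07 to 0.76) and Fos at 0.07 (-0.26 to 0.41). A single UMI does not mark a labelled cell: 2287 of 3634 control cells had one and 1894 of 3390 rescued cells, and no background share for it was measured. By flow cytometry at this time point, the paper reports tdTomato in only a small minority of control Treg cells and in most rescued ones. The paper called labelled control cells by a cutoff on imputed tdTomato, which was not used here. Most control cells with a UMI are thus likely unlabelled, so the ratios above do not compare labelled with unlabelled cells. Either class can hold both kinds, and deeper cells are more likely to have a UMI.

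The wider lists were compared between the libraries in the same way, where 6.55% of all other genes were at least 0.5 higher and 3.63% lower. Of 11 heat shock genes, 8 were lower in rescued cells by at least 0.5, led by Hspa1a (-1.18, -1.39 to -0.98), and none was higher, with a median of -0.64. Of 14 TCR response genes, 3 were higher, led by Tnfrsf9 (0.85) and Tnfrsf4 (0.81), and 1 was lower, Myc (-0.76). Of 13 other early genes, 4 were higher and 0 lower, led by Fosl2 (1.09) and Cebpb (0.77). Of 7 relatives, 3 were higher and 1 lower. Fosl2, counted in both lists, and Jdp2 (0.82) led, and Bach2, a repressor at AP-1-like sites, was lowest (-1.67). Of 11 upstream factors 1, Crem (0.58), was higher. Between control cells with and without tdTomato, 5 of 14 TCR response genes were higher, led by Bhlhe40 (1.12), and none of the heat shock genes. Of all other genes 3.59% were.

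Levels also varied with the mitochondrial share of cells, a measure of cell quality. Over 4 equal bins of that share in each library, from lowest to highest, Egr1 was at 66.9, 45.8, 39.9 and 41.7 CPM in control and 89.4, 42.0, 37.6 and 50.5 CPM in rescued cells. Nr4a1 went from 32.7 to 13.6 CPM and from 47.6 to 18.5 CPM. Jun ran the other way, from 286 to 380 CPM and from 256 to 391 CPM. By total UMIs, Jun was at 432 CPM in the shallowest and 296 CPM in the deepest bin of control cells, and at 425 and 242 CPM in rescued cells. The part of cell quality and depth in the differences above was not tested.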

How the data were processed

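The authors processed the reads of 2 droplet libraries (10x Chromium 3′) with Cell Ranger 3.0 and the mouse build mm10 (GRCm38). The deposited table holds counts, whole numbers of UMIs per cell and gene without normalization, for 7024 cells and 16098 genes. A deposited table of log values was not used. Per the methods, cells over 5% mitochondrial transcripts were removed, but deposited cells had medians of 9.43% (control) and 9.06% (rescued) over a table that holds 0 ribosomal protein genes, so the denominators may differ. Cells were assigned to a library by the prefix of their names. Counts were summed over cells and divided by all UMIs (CPM). Sums have exact Poisson intervals, shares exact Clopper-Pearson intervals and ratios conditional exact intervals, at 95%. Cells were thinned to 2000 UMIs for detection, leaving out 65 control and 33 rescued cells. A log2 odds ratio had 0.5 added to each cell of its 2 by 2 table. No doublet caller was run, and an alternative left out the 3.5% of cells with most UMIs. Clusters came from 1500 variable genes, 30 components, 15 neighbours and Leiden at resolution 0.8, without the members (Python 3.11.15, NumPy 2.4.6, SciPy 1.17.1, scikit-learn 1.9.0, leidenalg 0.10.2). The ratio code was tested on simulated data. Genes named beside the members came from the 3 genes most correlated with each group and the 2 highest and 2 lowest genes of each list, with a minimum of 100 UMIs (20 in classes of cells) and of 500 for correlations. The members and lists were chosen with earlier results of these data known. RefSeq promoters and GENCODE genes of GRCm38 gave sequences and overlaps. The 9 alternatives changed the scaling, the weight or depth of cells, the denominator, the cells kept, or compared within clusters.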

Additional observations from a re-analysis of the deposited data

Results flagged for a closer look

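For 5 members the log2 ratio of rescued to control lay on opposite sides of 0 in different clusters, each with an interval that left out 0. The intervals take each UMI as independent, and a few cells can hold many UMIs of a gene. The difference between clusters was not tested, and only the extreme clusters with at least 50 cells of each library are given. Nr4a1 was at 1.98 in cluster 8 (16 rescued and 8 control UMIs) and -1.54 in cluster 0. Egr1 was at 0.72 in cluster 4 and -1.08 in cluster 3. Egr2 was at 2.30 in cluster 8 (10 and 4 UMIs) and -1.23 in cluster 0. Fosb was at 2.25 in cluster 8 (12 and 5 UMIs) and -1.26 in cluster 1. Junb was at 0.48 in cluster 6 and -0.21 in cluster 7. Cluster 8, marked by interferon-induced genes, had 51 rescued and 114 control cells.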

How the results depend on the processing

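No paired analysis was possible because a single library stands for either group. The higher Nr4a and Egr level of rescued cells kept its direction in all 9 alternatives, with a median log2 ratio between 0.21 and 0.55. The Fos and Jun median of 0.14 was 0.10 after thinning to 1000 UMIs, 0.18 at 2000 UMIs, 0.11 against control cells with tdTomato, 0.19 in cells with at most 10% mitochondrial UMIs (an alternative chosen after seeing the data), and -0.0091 within clusters, where control cells are weighted to the cluster makeup of rescued cells. Within clusters Junb was at -0.0091, and Jun was at 0.034 after thinning to 1000 UMIs. The Nr4a and Egr co-detection median of rescued cells, 4.12, was 4.78 at 1000 UMIs and 3.13 within clusters (added after seeing the data), where control cells gave 2.29. With 2 or more UMIs of a group required, the TCR response median of the Nr4a and Egr class was 1.80 in control cells, the heat shock median of the Fos class was -0.014 in control and -0.26 in rescued cells, and the other early gene median of the Nr4a and Egr class was 0.76 in rescued cells. At 1000 UMIs the last was 0.47, and the heat shock median of the Fos class in rescued cells was 0.24. The share of all genes past 0.5 was 9.84% higher and 6.45% lower with a minimum of 20 UMIs, and 3.96% and 2.25% with 500. The cause of these shifts was not tested. Depth limits Nr4a2, Fosb pairs and the class with both, which hold few UMIs or cells, and 1 library per group leaves the spread between mice unknown.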
